A study of Mus musculus with 4 samples.

Results

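The vacuolar H+-ATPase (V-ATPase) is a rotary proton pump whose cytosolic V1 sector burns ATP. Its V1 genes were examined in whole testes at postnatal day 10 (P10). The members were chosen by name and are Atp6v1a, Atp6v1b2, Atp6v1c1, Atp6v1c2, Atp6v1d, Atp6v1e1, Atp6v1f, Atp6v1g1 and Atp6v1h, which are 9 of the 55820 loci in the deposited table. Atp6v1c1 was put at the centre of the group because of its strong fall in these libraries, so its values are a description without a test, and the question asked of the other 8 genes was whether paralogs or partners changed with it. RNA from male C57BL/6J mice had been sequenced in 4 libraries, 2 from testes with the genotype label control and 2 from Mps1sKO testes. In Mps1sKO mice the floxed Mps1 gene, also called Ttk, is deleted by Cre under Stra8 control, which acts in germ cells from early spermatogonia on. The alleles carried by the control mice and the number of mice behind each library are not given in the sources used here, although the replicates are described as biological, so the p-values measure the spread between these libraries.

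The V1 sector stands on a membrane-bound V0 ring through which protons pass into lysosomes, endosomes, the Golgi and, in sperm cells, the acrosome. In V1, the A and B subunits form the head that binds and splits ATP, D and F form the rotor inside it, and E and G form stalks that hold the head still. The C subunit ties these stalks to V0 and comes off when the pump is taken apart, and H keeps a detached V1 from wasting ATP. The C subunit is encoded by Atp6v1c1 in most tissues and by Atp6v1c2 in a few, such as kidney, lung and epididymis.

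Atp6v1c1 (ENSMUSG00000022295) lies on chromosome 15 from 38661933 to 38692446 on the forward strand of GRCm38, and its longest coding transcript has 13 exons. Atp6v1c2 (ENSMUSG00000020566) lies on chromosome 12 from 17284721 to 17329359 on the reverse strand. The coding sequences of their longest coding transcripts in GENCODE M21, 1146 and 1311 bases long, were identical at 749 of 1124 aligned positions (66.6%), and the longest identical run was 15 bases. The 90 bases printed here begin the 150-base window in which the genes were most alike, and show how far reads of 150 bases could tell the paralogs apart. They are coding bases 829 to 918 of Atp6v1c1 at chr15:38689125-38689214 on the forward strand, and 994 to 1083 of Atp6v1c2 at chr12:17288091-17288180 on the reverse strand, each inside a single exon. Capitals mark the 20 positions at which they differ.
Atp6v1c1: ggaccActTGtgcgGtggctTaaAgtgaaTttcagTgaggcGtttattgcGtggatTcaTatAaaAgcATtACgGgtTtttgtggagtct
Atp6v1c2: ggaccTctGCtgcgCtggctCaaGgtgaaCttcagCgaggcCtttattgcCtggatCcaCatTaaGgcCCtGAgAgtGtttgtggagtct
In the whole window, 34 of 150 bases differed. No transcript of another gene matched the longest coding transcript of Atp6v1c1 at 90% identity or more over at least 100 bases. That transcript has 2071 bases, beside 5601 in all annotated exons, and the other transcripts were not searched.

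The libraries held between 23311689 and 28607746 counts, and 3 counts, the limit that a count of 0 allows, were 0.104 to 0.129 CPM (counts divided by the size of the library), counting error only. edgeR's filter on low counts kept 20561 loci and all 9 members. Normalized counts are CPM scaled by the TMM method, with mean ± SD over 2 libraries, and fold changes are Mps1sKO relative to control. Calls used the cut-offs of the study, in which the fold change has to exceed 1.5 and the unadjusted p has to be below 0.01, with p from the two-sided quasi-likelihood test of edgeR. In the fit over all loci, 140 loci were called lower (0.681%) and 30 higher (0.146%), which is 0.827% in either direction, and 6 (0.0292%) had a Benjamini-Hochberg adjusted p below 0.05. The targeted gene Ttk was counted 750 and 940 times in control libraries and 302 and 326 times in Mps1sKO libraries, and its normalized count was 41.7% of control (log2 fold change −1.26, adjusted p = 0.0461 from edgeR with Benjamini-Hochberg adjustment). Its adjusted p was below 0.05 under 10 of 14 alternatives, and was 0.224 with the replicate block.

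Atp6v1c1 was counted 571 and 650 times in control libraries and 52 and 41 times in Mps1sKO libraries. Both Mps1sKO libraries lay far below both control libraries, and the counts were well above the limit of 3. The normalized count was 21.9 ± 0.943 CPM (SD, n = 2) in control and 1.89 ± 0.505 CPM (SD, n = 2) in Mps1sKO testes, so that 8.63% of the control level was left. The log2 fold change was −3.54, with a standard error of 0.196 and a 95% interval from −4.00 to −3.09. Among all tested loci it was the number 4 in the order of most negative log2 fold changes, and the number 2 among the 11110 loci with a mean of at least 10 CPM. Since the gene was chosen for its fall in these libraries, the interval is not a test of that fall, and both ranks restate the choice. In RNA from whole tissue, fewer cells of a type and less RNA per cell cannot be told apart.

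**Figure D1:**
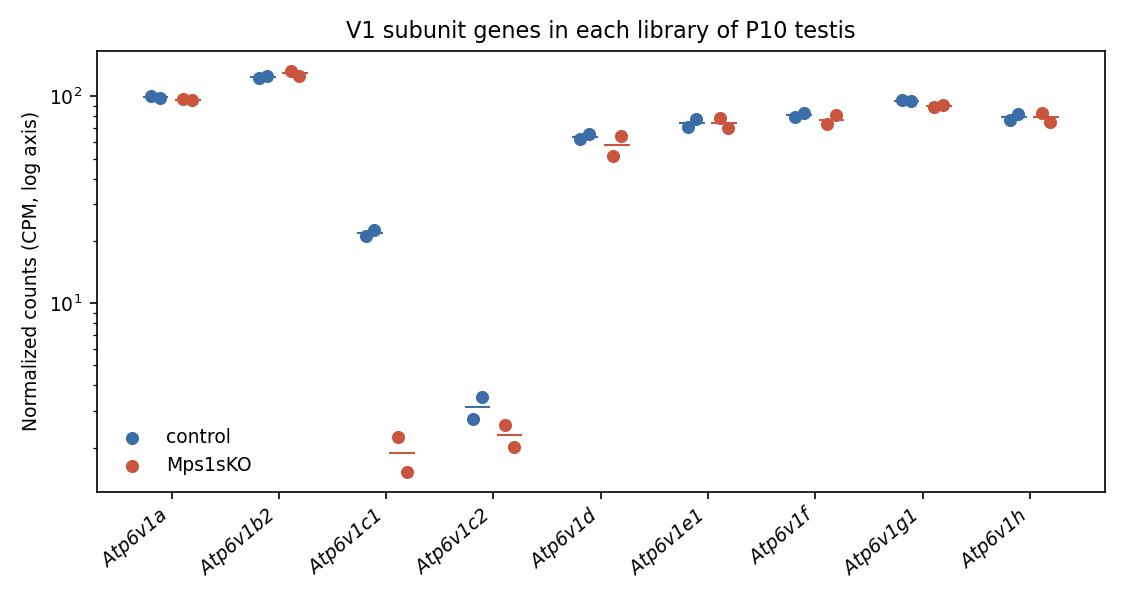
Normalized counts (CPM, log axis) of the 9 V1 genes in each library. Points are libraries, 2 control and 2 Mps1sKO, and lines are group means. The mean of Atp6v1c1 falls from 21.9 to 1.89 CPM, and that of Atp6v1c2 goes from 3.14 to 2.30 CPM.

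Germ cell markers had lower values in the same Mps1sKO libraries, in 10 of 10 genes. Of these 1, Tex101, passed the cut-offs, against 0.681% of all loci called lower. An unadjusted p below 0.05 from edgeR was seen for 8 of the 10, against 5.37% of all loci in that direction. In all 10, both Mps1sKO libraries lay below both control libraries, against 21.1% of all loci. On the log2 scale the fold change was −0.75 at the lowest and −0.30 at the highest, with a median of −0.44, and their summed level was 1352 and 1588 CPM in control against 1199 and 939 CPM in Mps1sKO libraries. Values of the 12 meiotic prophase genes were lower too, from −0.90 to −0.07 with a median of −0.61. Of them 9 passed the cut-offs, against 0.681% of all loci called lower. In 11 of the 12, both Mps1sKO libraries lay below both control libraries, against 21.1% of all loci. The study had reported several of these genes as changed in the same data, so these calls partly restate its result. The 9 tested Sertoli cell genes had higher values with a median of 0.33 and 0 called, against 0.146% of all loci called higher, and their summed level over 10 genes was 3425 and 2882 CPM in control and 3549 and 4273 CPM in Mps1sKO libraries. Medians over Leydig, myoid, macrophage and endothelial genes lay between −0.12 and 0.18. No germ cell marker was at 0, the defining markers of testis cell types were present apart from the Sertoli gene Rhox5 (1 count in all), and the part of the cell composition in the level of Atp6v1c1 was not tested.

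The other C subunit gene, Atp6v1c2, did not pass the cut-offs. It was counted 74 and 102 times in control and 60 and 54 times in Mps1sKO libraries. Both Mps1sKO libraries lay below both control libraries, by a margin smaller than the gap between the controls. The normalized count was 3.14 ± 0.558 CPM in control and 2.30 ± 0.406 CPM in Mps1sKO testes (SD, n = 2 each). The log2 fold change was −0.45, with a 95% interval from −1.02 to 0.11 (unadjusted p = 0.0984 and adjusted p = 0.594, edgeR's quasi-likelihood test with Benjamini-Hochberg adjustment). A fall by a fold of 1.5 lies inside that interval. With 1 library left out, the log2 fold change ran from −0.64 to −0.26. The end of Atp6v1c2 overlaps that of Pdia6, a protein disulfide isomerase gene on the opposite strand with 6685 to 9829 counts per library. The overlap runs only from 17284721 to 17284770 on chromosome 12, beside 2174 bases in all annotated exons of Atp6v1c2. Since strandedness is not given in the sources used here, reads from the overlap cannot be told apart.

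To add the paralogs, their levels were taken per length as FPKM, which are fragments scaled to gene length and library size. Atp6v1c1 stood at 3.75 and 3.998 FPKM in control and 0.399 and 0.273 FPKM in Mps1sKO libraries, and Atp6v1c2 at 1.25 and 1.62 FPKM in control and 1.19 and 0.925 FPKM in Mps1sKO libraries. Atp6v1c1 was thus above its paralog in both control libraries and below it in both Mps1sKO libraries. The sum of both genes was 5.31 ± 0.430 FPKM in control and 1.39 ± 0.273 FPKM in Mps1sKO testes (SD, n = 2 each), or 26.2% of control. Atp6v1c1 made up 75.0% and 71.2% of this sum in control libraries and 25.2% and 22.8% in Mps1sKO libraries. The length in the table, 5601 bases for Atp6v1c1, is that of all annotated exons, and its longest coding transcript has 2071 bases. With CPM per kilobase of the longest coding transcript of each gene, the sum in Mps1sKO testes was 18.9% of control, and the share of Atp6v1c1 went from 85.4% and 82.8% to 39.6% and 36.5%. The fall of the sum follows from the choice of Atp6v1c1 and has no test.

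**Figure D2:**
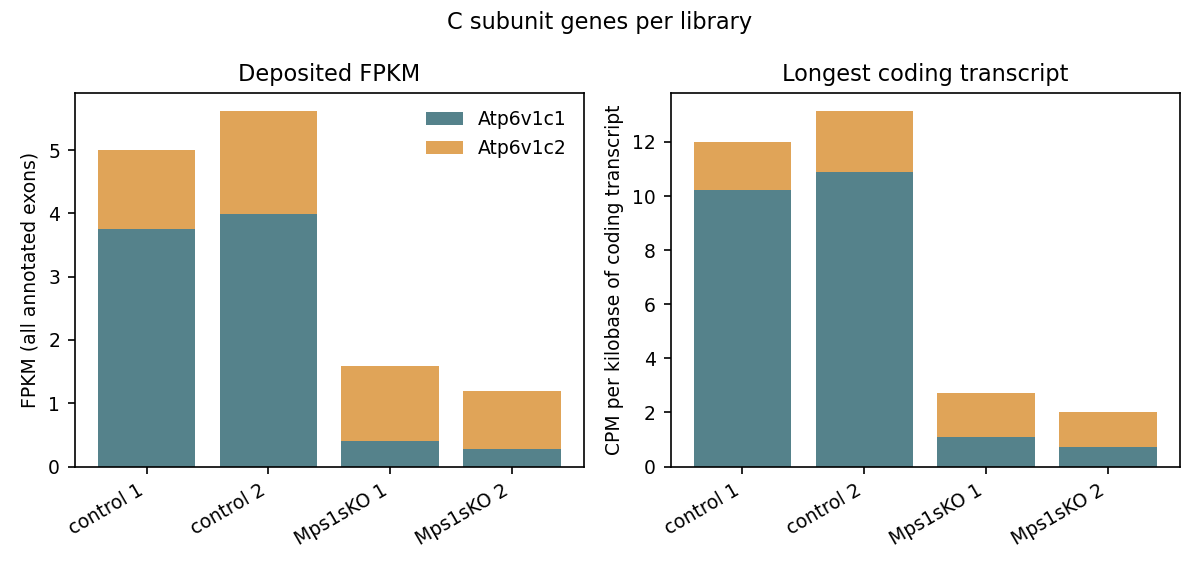
Levels of Atp6v1c1 and Atp6v1c2, stacked, in each library, as deposited FPKM (left) and as CPM per kilobase of the longest coding transcript (right). In Mps1sKO libraries the stacks are lower and most of each is Atp6v1c2.

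The catalytic head was represented by Atp6v1a, which encodes the ATP-splitting A subunit, and Atp6v1b2, which encodes the B subunit of most tissues. Atp6v1a had 99.7 and 97.7 CPM in control and 96.6 and 95.5 CPM in Mps1sKO libraries. The Mps1sKO values were the lower ones without overlap, but by a narrow margin, and the log2 fold change was −0.04 (95% interval −0.24 to 0.16, adjusted p = 0.912 from edgeR with Benjamini-Hochberg adjustment). Atp6v1b2 had 123 and 125 CPM in control and 133 and 126 CPM in Mps1sKO libraries. It was the single member with a value above control, with a log2 fold change of 0.06 (95% interval −0.14 to 0.26, adjusted p = 0.848 from the same edgeR test).

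The rotor genes were Atp6v1d and Atp6v1f. Atp6v1d had 62.0 and 65.7 CPM in control and 51.4 and 64.2 CPM in Mps1sKO libraries. Its groups overlapped, since Mps1sKO replicate 1 was low and replicate 2 lay between the controls, and the log2 fold change was −0.14 (95% interval −0.42 to 0.14, adjusted p = 0.733 from edgeR with Benjamini-Hochberg adjustment). Atp6v1f had 79.3 and 83.4 CPM in control and 73.1 and 81.1 CPM in Mps1sKO libraries, which again overlapped, with a log2 fold change of −0.08 (95% interval −0.30 to 0.14).

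Of the stalk genes, Atp6v1e1 had 71.1 and 77.8 CPM in control and 78.1 and 70.3 CPM in Mps1sKO libraries. Its group means were 74.5 and 74.2 CPM, so that the genotypes differed by much less than the libraries within each of them. Atp6v1g1 had 95.5 and 94.6 CPM in control and 88.4 and 90.9 CPM in Mps1sKO libraries. Both Mps1sKO values were the lower ones, with a log2 fold change of −0.08 (95% interval −0.28 to 0.11, adjusted p = 0.781 from edgeR with Benjamini-Hochberg adjustment). Atp6v1h, for the regulatory H subunit, had 76.9 and 81.9 CPM in control and 83.3 and 75.0 CPM in Mps1sKO libraries. The groups overlapped, their means were 79.4 and 79.1 CPM, and the 95% interval of the log2 fold change ran from −0.23 to 0.22.

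Of these 8 genes, 0 passed the cut-offs, against 0.827% of all loci tested. An unadjusted p below 0.05 was seen for 0 of the 8 genes, against 9.3% of all loci, of which 5.37% were lower and 3.92% higher. That number was 1 without control replicate 1 (Atp6v1c2, −0.62, unadjusted p = 0.0468 from edgeR) and 1 without Mps1sKO replicate 2 (Atp6v1d, −0.31, unadjusted p = 0.0238 from edgeR). Their adjusted p-values from edgeR lay between 0.594 and 0.995, and DESeq2 and limma-voom also called 0 of them. Their log2 fold changes were negative for 7 genes and positive for 1, with a median of −0.059 beside 0.00027 over all loci tested. For 3 genes both Mps1sKO libraries lay below both control libraries and for 1 gene above them. The same held for 21.1% and 20.3% of all loci, so 41.4% did not overlap. A change by a fold of 1.5 lay outside the 95% interval for each of the 8 genes except Atp6v1c2.

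**Figure D3:**
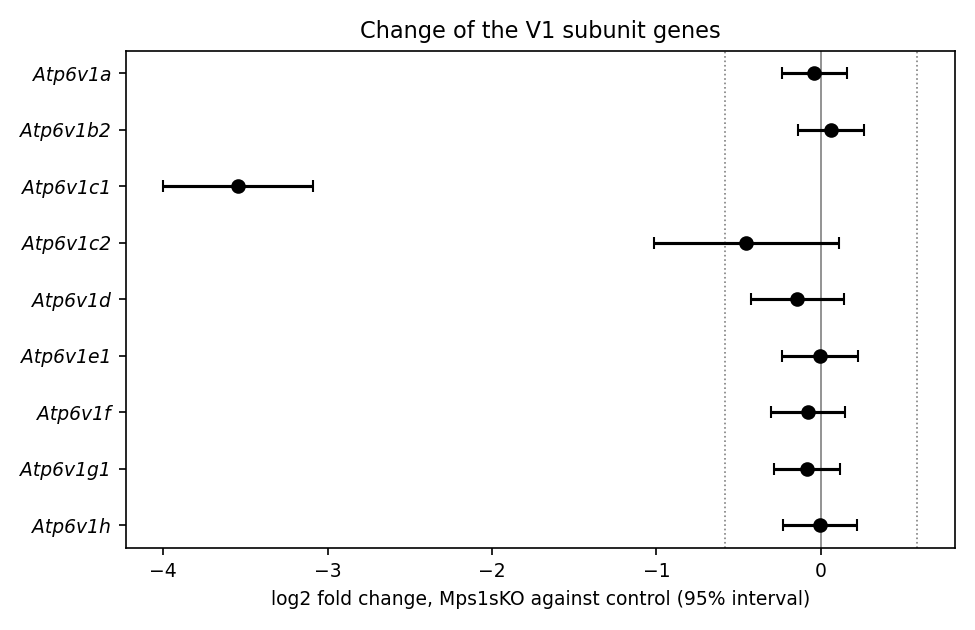
Log2 fold change of the 9 V1 genes, Mps1sKO relative to control. Points are edgeR estimates, bars are 95% intervals, and dotted lines mark a fold change of 1.5 in either direction. Atp6v1c1, chosen for its fall, stands at −3.54, and the interval of each other gene includes 0.

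Other V1 genes have a narrower expression. Atp6v1g2, the G subunit known from neurons, was counted 572 and 616 times in control and 472 and 593 times in Mps1sKO libraries, and its log2 fold change was −0.0027 (unadjusted p = 0.981 from edgeR's quasi-likelihood test, adjusted p = 0.997 with Benjamini-Hochberg adjustment). It overlaps Nfkbil1 on the opposite strand, which had 543 to 740 counts. Atp6v1b1, the B subunit of kidney intercalated cells and epididymal clear cells, was counted 7 and 17 times in control and 6 and 5 times in Mps1sKO libraries and was left out by the filter. Atp6v1e2, known from the acrosome, and Atp6v1g3, known from kidney, had 0 counts in all 4 libraries, which allows up to 0.129 CPM in any of them. Of 5 markers of epididymal clear cells, which are rich in V-ATPase, 0 passed the filter, and their summed level was 0.336 to 0.763 CPM. These markers include the pump genes Atp6v1b1, Atp6v1g3 and Atp6v0d2, so the sum is not separate from the counts of those genes. Atp6v1b1 alone had 0.187 to 0.589 CPM. Epididymal principal cell genes summed to 2.43 to 3.30 CPM, most of it from Defb42 (67 to 87 counts).

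Compared per length, the control levels ranked Atp6v1g1 first (83.5 and 82.8 FPKM), followed by Atp6v1f, Atp6v1b2, Atp6v1e1, Atp6v1a, Atp6v1d, Atp6v1h, Atp6v1c1 and Atp6v1c2. The values of no pair of neighbours in that order overlapped between the control libraries. Both genes of a pair were read in the same 2 libraries, and the order was not tested. In Mps1sKO testes, Atp6v1c1 and Atp6v1c2 changed places at the low end, and the other genes kept their order. The order depended on the length used. Per kilobase of longest coding transcript, Atp6v1f came first in control with 116 CPM, ahead of Atp6v1g1 with 83.7 CPM and Atp6v1e1 with 56.8 CPM, while Atp6v1c1, with 10.6 CPM, and Atp6v1c2 again came last.

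The V0 sector carries the protons, and of the 13 genes for it and its accessory proteins 12 were tested. They had 3 lower and 9 higher values, with a median log2 fold change of 0.065. Of them 0 were called, against 0.827% of all loci. At so small a share, 0 calls in a list of this size do not show that it was unchanged. Atp6v0e2, which encodes a small e subunit, had the smallest p of them, with 36.1 and 34.7 CPM in control and 50.0 and 40.5 CPM in Mps1sKO libraries. The Mps1sKO values were the higher ones, with a log2 fold change of 0.35 (unadjusted p = 0.0205, adjusted p = 0.505, edgeR with Benjamini-Hochberg adjustment). Atp6ap1, an accessory protein that helps to assemble the pump, had a log2 fold change of 0.18, and Atp6v0e one of 0.13. Atp6v0d2, a d subunit known from osteoclasts and kidney, had 2 counts in all and was not tested.

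Of 12 genes for assembly and regulation of the pump, 11 were tested, with 6 lower and 5 higher values. Their median was −0.033, and 0 were called, against 0.827% of all loci. As for V0, 0 calls here do not show that the list was unchanged. The 3 smallest p-values were those of Rogdi, Ncoa7 and Dmxl2. Rogdi and Dmxl2 belong to the RAVE-like assembly factor that joins V1 to V0, and Ncoa7 has a TLDc domain that binds V1. Rogdi had 31.9 and 33.9 CPM in control and 28.4 and 26.9 CPM in Mps1sKO libraries, with a log2 fold change of −0.25 (unadjusted p = 0.041, adjusted p = 0.527, edgeR with Benjamini-Hochberg adjustment). Ncoa7 went the other way, from 59.0 and 64.7 CPM to 69.3 and 77.2 CPM, which is 0.24 on the log2 scale (adjusted p = 0.529, edgeR with Benjamini-Hochberg adjustment). Dmxl2 had a log2 fold change of −0.25, and its groups overlapped.

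Genes of the lysosome had a median log2 fold change of 0.082, and 0 of 45 tested were called, against 0.827% of all loci. At that share, 0 calls among 45 genes do not show that they were unchanged. For this compartment, which the pump acidifies, 12 values were lower and 33 higher, beside 10268 lower and 10293 higher among all tested loci. The 30 genes of its membrane and enzymes were higher in 26 cases with a median of 0.098, and 4 of them were higher with an unadjusted p below 0.05, against 3.92% of all loci. Sgsh, a heparan sulfate sulfatase, had 31.5 and 27.8 CPM in control and 34.7 and 41.6 CPM in Mps1sKO libraries (log2 fold change 0.36, adjusted p = 0.505, edgeR with Benjamini-Hochberg adjustment). Sort1, a sorting receptor, and Asah1, the acid ceramidase, each had a log2 fold change of 0.24. The 15 genes of lysosomal signalling, among them the Ragulator subunits and the TFEB family, were split into 8 lower and 7 higher values with a median of −0.027, and the smallest p in this group was that of Tfe3, with a log2 fold change of 0.19 (unadjusted p = 0.074, adjusted p = 0.573, edgeR with Benjamini-Hochberg adjustment). Mitf, of the same family, had a log2 fold change of −0.31, and the amino acid sensor Slc38a9 had one of −0.18.

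**Figure D4:**
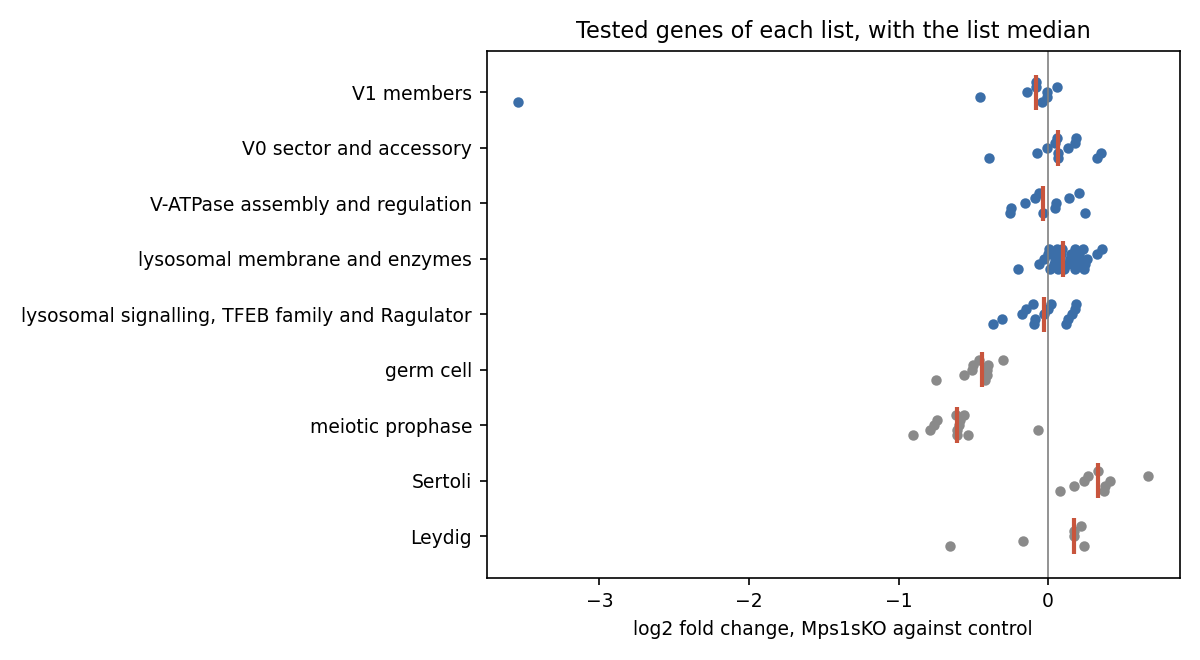
Log2 fold changes, Mps1sKO relative to control, of the tested genes of the pump, of the lysosome (blue) and of cell type markers (gray). Each point is a gene and each red bar the median of its list. The pump and lysosome medians lie between −0.078 and 0.098, germ cell and meiotic genes lie to the left of 0, and Atp6v1c1 is the point at −3.54.

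TFEB and its relatives are known to bind the motif TCACGTG before many V-ATPase and lysosome genes. The RefSeq promoter table (GRCm38.p6, 250 bases before to 50 after the start) matched 5 of the 9 members, Atp6v1a, Atp6v1c2, Atp6v1d, Atp6v1e1 and Atp6v1f, while Atp6v1b2, Atp6v1c1, Atp6v1g1 and Atp6v1h were not matched. The motif was searched on both strands, as TCACGTG and CACGTGA, which overlap in TCACGTGA. It was present in 1 of these 5 promoters and in 3 of 14 promoters of the V0 list, against 1237 of 32851 promoters in the table (3.77%). The match in a member was in Atp6v1a, 132 bases before the RefSeq start but inside the GENCODE M21 span of the gene, which begins further upstream at 44139705. It is shown with its surroundings at chr16:44139373-44139402 on the reverse strand, with the match on both strands in capitals.
Atp6v1a: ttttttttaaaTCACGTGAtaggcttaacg

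The neighbours of Atp6v1c1 on chromosome 15 were read to see whether they shared its fall. Within 1 Mb of either end the table has 48 loci, of which 15 were tested, with 9 lower and 6 higher values. Their median log2 fold change was −0.085, and 0 were called, against 0.827% of all loci. At that share, 0 calls among 15 loci do not show that they were unchanged. The nearest tested locus before Atp6v1c1 was the antisense gene Gm49077, 142 kb away, with only 5 to 13 counts per library and a log2 fold change of −0.66 (unadjusted p = 0.229 from edgeR's quasi-likelihood test, adjusted p = 0.699). Azin1, an antizyme inhibitor gene at 143 kb, was counted 3123 and 3718 times in control and 2859 and 2854 times in Mps1sKO libraries, with a log2 fold change of −0.09 (95% interval −0.34 to 0.16). The nearest one after it was Fzd6, a Wnt receptor gene at 314 kb, counted 24 and 44 times in control and 81 and 19 times in Mps1sKO libraries, so that its Mps1sKO libraries were the highest and the lowest of all. No gene overlaps Atp6v1c1 on either strand, and no locus without an annotated identifier overlaps any member.

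**Figure D5:**
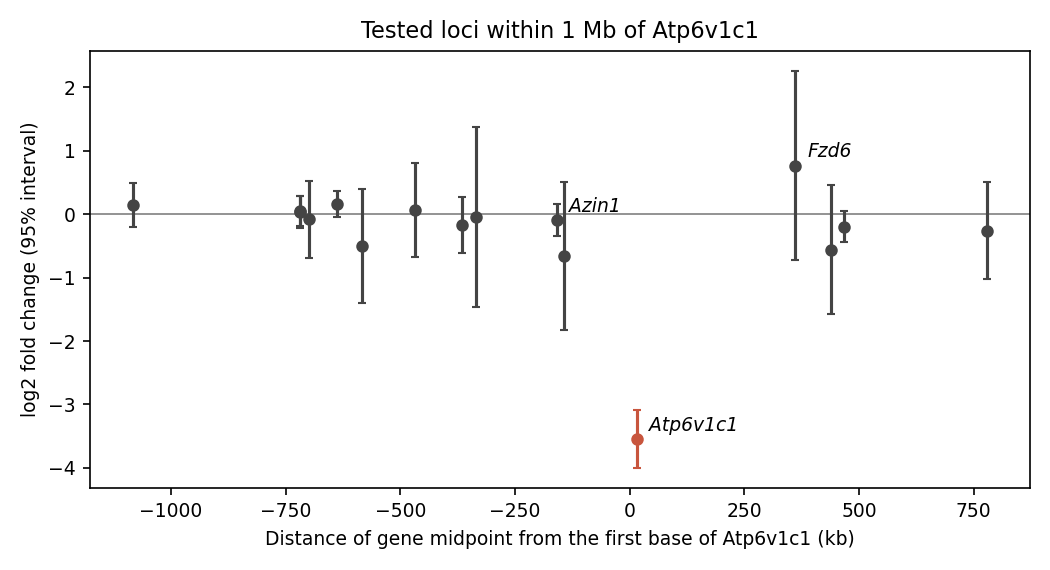
Log2 fold change, Mps1sKO relative to control, of Atp6v1c1 (red) and the 15 tested loci within 1 Mb (gray) by the distance of each gene's midpoint from the first base of Atp6v1c1 in kb. Bars are 95% intervals. Each neighbour's interval includes 0, and Atp6v1c1, chosen for its fall, lies at −3.54.

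The loci whose normalized counts followed the pattern of Atp6v1c1 most closely over the 4 libraries were chosen by the Euclidean distance between log2 CPM values centred on their mean, and are a description over 4 points. The closest was a locus without an annotated identifier on the patch scaffold CHR_MG209_PATCH from 47368802 to 47378741, counted 613 and 623 times in control and 39 and 42 times in Mps1sKO libraries (distance 0.385). The processed pseudogene Gm6741 was counted 98 and 100 times in control and 11 times in each Mps1sKO library (distance 0.748). Ltf, which encodes lactoferrin, was counted 12 and 11 times in control and 0 times in both Mps1sKO libraries (distance 0.920), so the last of these rests on few counts.

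Several members share sequence or position with other genes. Atp6v1e1 overlaps Slc25a18, a mitochondrial carrier gene on the opposite strand, only from 120794305 to 120794336 on chromosome 6. The log2 fold change of Slc25a18 was 0.42 (unadjusted p = 0.0205 from edgeR's quasi-likelihood test, adjusted p = 0.505). Atp6v1e1 also contains the microRNA gene Gm25193 with 7 to 16 counts. Atp6v1b2 overlaps Slc18a1, and Atp6v1h overlaps Rgs20, both of which had at most 41 counts in a library. Gene Gm13453, a pseudogene of Atp6v1g1 with 99.4% identity over 357 bases, had 6 to 11 counts, and AC169506.3, a pseudogene of Atp6v1f, had 1 to 7. Beside the 1693 to 2727 counts of Atp6v1f and Atp6v1g1 in a library these are small numbers, but how the authors' counting divided reads between such copies is not given in the sources used here.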

How the data were processed

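Whole testes at P10 were sequenced from 2 control and 2 Mps1sKO samples, grouped by the genotype in their labels (total RNA, NEBNext Ultra libraries, paired 150 bp reads, NovaSeq). The submitters' processing notes name HISAT2 2.0.5, featureCounts, DESeq2 1.16.1 and mm10. The authors deposited 1 table with raw counts per gene, FPKM values and the gene length behind them, and its spans of the members were those of GENCODE M21. The test on counts was that of edgeR 4.0.16 under R 4.3.3 (filterByExpr, TMM, quasi-likelihood F test on genotype, common biological coefficient of variation 0.106), and p was adjusted over all tested loci. The deposited FPKM values were used to compare and add genes and were not tested. Coding sequences were aligned with Biopython 1.88, and the longest coding transcript of each V1 gene was compared with all transcripts by BLAST 2.17.0.

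The members and gene lists were chosen with earlier results of these data known. Named genes are the members, their paralogs, Ttk, the 3 genes of each pathway list with the smallest p, nearest neighbours, overlapping genes and pseudogenes, and the 3 loci most like Atp6v1c1. Chosen after their values were seen were Slc25a32 and Rims2, which passed the cut-offs under an alternative, Atp6v0d2, and the marker genes Tex101, Rhox5 and Defb42. Alternatives were DESeq2 1.42.0, limma-voom (limma 3.58.1), DESeq2 size factors, library size alone, other filters, robust dispersion, annotated genes only, the replicate block, and each library left out. A crossed pairing and the length of the longest coding transcript were added after seeing the data. The scripts were tested on simulated data.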

Additional observations from a re-analysis of the deposited data

How the results depend on the processing

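Under all 14 alternatives, 0 of the 8 V1 genes other than Atp6v1c1 passed the cut-offs, as did 0 genes of the V0, assembly and lysosome lists, and the adjusted p of the 8 genes ranged from 0.309 to 1.00 (edgeR's quasi-likelihood test, DESeq2 or limma). Over all loci, 170 of 20561 were called in the main fit and 118 of 35262 with DESeq2. At such small shares, 0 calls in lists of this size do not show that the genes were unchanged. Atp6v1c1 kept its direction, with a log2 fold change from −3.83 without Mps1sKO replicate 1 to −3.28 without Mps1sKO replicate 2. Since it was chosen for its fall in these libraries, that direction restates the choice. The sign of values near 0 changed in 6 fits. Atp6v1d was at 0.0073 without Mps1sKO replicate 1 and −0.31 without replicate 2, Atp6v1e1 at 0.00083 with DESeq2, 0.060 without control replicate 2 and 0.070 without Mps1sKO replicate 2, and Atp6v1h at 0.039 and 0.068 without these same libraries. Without Mps1sKO replicate 1, Atp6v1e1 was at −0.082 and Atp6v1h at −0.083. The C subunit sum was 18.9% of control per length of coding transcript, and 22.6% to 29.8% with each library left out. This sum contains the chosen gene, so its range is a description too.

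Of all loci, 170 passed the cut-offs, 474 without the filter on low counts (339 lower and 135 higher), and 186 to 514 with 1 library left out, where the lone sample of a group is assumed to vary like the others. Without control replicate 1 the number was 514, without control replicate 2 it was 186 (100 lower), without Mps1sKO replicate 1 it was 400 and without Mps1sKO replicate 2 it was 270. Among the neighbours of Atp6v1c1 the number was 1 without the filter (Fzd6) and 0 to 2 with a library left out, Slc25a32 without Mps1sKO replicate 1 and Fzd6 and Rims2 without Mps1sKO replicate 2. With the replicate number as a block, 131 loci passed (100 lower and 31 higher). No call changed among the members other than Atp6v1c1, the V0, assembly and lysosome lists, and the neighbours. The difference of control replicate 1 from 2 was set against that of Mps1sKO replicate 1 from 2 at each locus. Their correlation over 20561 loci was −0.19, so the numbers were not taken as a pairing. A crossed pairing gave 273 loci (202 lower and 71 higher). At an adjusted p below 0.05 the number of loci was 6, and it was 37 with DESeq2, 390 without the filter, 3 each with limma-voom, annotated genes alone or at least 10 counts in every library, 2 with the replicate block, 550 with the crossed pairing, and 199 and 68 without control replicates 1 and 2 and 17 and 35 without Mps1sKO replicates 1 and 2. Ttk missed that threshold with at least 10 counts (0.0573), limma-voom (0.0745), annotated genes (0.0509) and the replicate block (0.224), each an adjusted p. The cause of these differences was not tested. With 54 to 102 counts in a library, Atp6v1c2 had a wider interval than the other members tested.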
